A study of Mus musculus with 62 samples.

Results

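The 6 genes of the skeletal muscle troponin complex were followed through the chromatin of mouse skeletal muscle. The members were the fast fiber genes Tnni2, Tnnt3 and Tnnc2 and the slow fiber genes Tnni1, Tnnt1 and Tnnc1. Their regions were the peaks whose nearest gene, as given by the authors' annotation, was a member. Of 601616 regions in 16 lists of histone marks and 4 lists of differentially acetylated regions, 105 were named for a member, 68 of them for a fast and 37 for a slow gene.

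Chromatin immunoprecipitation sequencing (ChIP-seq) had been performed for H3K27ac, an acetylated histone tail found at active promoters and enhancers, and for H3K4me2, a methylated tail that marks promoters and enhancers whether or not they are active. Each mark was profiled in 2 replicates of 8 groups of male mice, all labelled C57BL/6. Wild-type sedentary mice gave the groups Sol (the soleus), Dia (the diaphragm), EDL (the extensor digitorum longus, a foot extensor) and Quad (the quadriceps). A sample of EDL, Sol or Dia pooled the muscles of 3 animals, whereas each Quad sample was 1 muscle of 1 animal. Sed and Ex were wild-type Quad without and with a running wheel for 4 weeks from 8 weeks of age, and Ex was harvested hours after the last bout. The mTg group was sedentary Quad carrying a PGC1a transgene under the muscle creatine kinase promoter, a driver active in muscle fibers, and Wt was wild-type sedentary Quad of littermates. Quad, Sed and Wt were therefore 3 untreated sets of the same muscle. Ages at harvest of the muscle groups and of Wt and mTg were not given in the sources used here.

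Troponin sits on the thin filament and switches contraction on when calcium rises. Its C subunit binds calcium, its I subunit holds back the interaction of actin and myosin, and its T subunit fastens the complex to tropomyosin. Fast and slow fibers use separate genes for each subunit, and the slow C subunit is also that of the heart. Fast fibers predominate in EDL and in much of Quad, and slow fibers are plentiful in Sol.

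Start sites were taken from the curated RefSeq transcripts of GRCm38.p6, the assembly also called mm10, which the histone lists use. Tnni2 starts at base 142441816 and Tnnt3 at base 142498836 of chromosome 7, both on the plus strand, and Tnnc2 at base 164779734 of chromosome 2 on the minus strand. Tnni1 starts at base 135799421 of chromosome 1 and Tnnc1 at base 31208312 of chromosome 14, both on the plus strand, and Tnnt1 at base 4515975 of chromosome 7 on the minus strand. The sequences below are shown because the marks at the start site are what separates the fast from the slow genes. Each is the 250 bases before the start, 5′ to 3′ on the gene's strand, from the RefSeq promoters of GRCm38.p6, which held 4 of the 6 members and not Tnni2 or Tnnt3. They are chr2:164779735-164779984 for Tnnc2 (minus strand), chr1:135799171-135799420 for Tnni1 (plus), chr7:4515976-4516225 for Tnnt1 (minus) and chr14:31208062-31208311 for Tnnc1 (plus). Capitals mark E-boxes (CANNTG), the letters bound by MyoD family factors, the MCAT word (CATTCC) and the MEF2-like word CTANNNNTA, each on either strand.
Tnnc2: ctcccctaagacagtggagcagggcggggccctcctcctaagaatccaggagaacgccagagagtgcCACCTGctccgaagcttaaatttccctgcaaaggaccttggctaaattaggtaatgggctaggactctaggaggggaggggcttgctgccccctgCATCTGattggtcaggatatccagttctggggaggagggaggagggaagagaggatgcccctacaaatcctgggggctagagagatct
Tnni1: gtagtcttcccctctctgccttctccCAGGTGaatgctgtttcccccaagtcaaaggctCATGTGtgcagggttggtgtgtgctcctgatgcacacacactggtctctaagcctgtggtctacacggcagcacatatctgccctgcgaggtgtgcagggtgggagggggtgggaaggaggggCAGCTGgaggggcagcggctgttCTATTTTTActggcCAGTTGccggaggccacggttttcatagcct
Tnnt1: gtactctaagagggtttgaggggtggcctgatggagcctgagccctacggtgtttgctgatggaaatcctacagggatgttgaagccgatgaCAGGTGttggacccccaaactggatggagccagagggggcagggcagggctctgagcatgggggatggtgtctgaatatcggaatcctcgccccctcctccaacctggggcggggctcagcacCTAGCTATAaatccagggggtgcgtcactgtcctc
Tnnc1: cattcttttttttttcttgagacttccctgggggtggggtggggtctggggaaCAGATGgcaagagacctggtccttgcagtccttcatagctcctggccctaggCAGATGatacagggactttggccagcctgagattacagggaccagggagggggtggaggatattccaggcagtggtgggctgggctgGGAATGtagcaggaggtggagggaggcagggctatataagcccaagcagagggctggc
The last line is another kind of element, a site upstream of Tnni1 on the plus strand at chr1:135794551-135794745, which was the accessible core of an acetylated region discussed further on.
Tnni1 upstream site: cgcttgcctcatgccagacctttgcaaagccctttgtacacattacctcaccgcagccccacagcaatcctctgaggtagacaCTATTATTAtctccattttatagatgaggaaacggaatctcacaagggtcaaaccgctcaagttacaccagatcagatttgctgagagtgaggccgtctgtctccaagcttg

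The 4 promoters differed in these words. Tnni1 held 4 E-boxes, Tnnc2 and Tnnc1 held 2 each and Tnnt1 held 1. A MEF2-like word, CTATTTTTA, began 45 bases before the Tnni1 start, and the Tnnt1 word CTAGCTATA began at -35 and overlapped the TATA word TATAAA at -30. Tnnc1 held the MCAT word, on its minus strand, from -58 to -53. The Tnni1 upstream site held neither an E-box nor MCAT and had the MEF2-like word CTATTATTA from -4787 to -4779. Among all 32851 promoters of the same 250 bases, 66.2% held an E-box, 12.6% MCAT, 18.96% the MEF2-like word and 12.4% TATAAA. These are matches of letters and were not tested for binding.

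Each histone list is 1 call by the authors over both replicates against input chromatin, and each was normalized on its own, so nothing was tested between lists. A region is described by a level and a rank. The level over input is the log2 level of a ChIP library minus that of its input in the same list, where 1 unit is a doubling. The percentile is the rank of the region's log2 level per kb of width among all regions of its own list. Depth was 11.7M to 24.2M tags in the 16 H3K27ac libraries and 6.41M to 22.7M in the 16 H3K4me2 libraries (M, 1000000), lowest in mTg H3K4me2 replicate 1. Of fixed marker lists, all 5 fast fiber genes (Myh4, Myh1, Pvalb, Actn3, Mylpf) carried H3K27ac in all 8 groups. Of 5 slow fiber genes (Myh7, Myl2, Myl3, Atp2a2, Casq2), all 5 carried it in Dia and Sol and 3 to 4 in the other 6 groups, where the slow myosin gene Myh7 had 0 regions. Endothelial and fibroblast markers were acetylated in every group (3 of 3 each), as were 2 to 3 of 3 macrophage and 1 to 2 of 2 satellite cell markers, so the nuclei were not from fibers alone. Of 3 cardiac markers, Myh6 and Nppa had 0 regions. In whole muscle, fewer nuclei of a fiber type and less of a mark per nucleus cannot be told apart.

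H3K27ac covered the start site of all 3 fast troponin genes in all 8 groups and that of the slow genes in few of them. Fast start sites were covered in 24 of 24 combinations of gene and list. For slow genes the count was 5 of 24, namely Tnni1 in Sol, Tnnt1 in Sol and Dia, and Tnnc1 in Sol and Dia. As background, H3K27ac covered 49.4% of 21000 curated start sites in EDL, 44.3% in Quad, 49.9% in Sed, 44.9% in Wt, 50.2% in Ex, 39.9% in mTg, 46.2% in Dia and 46.8% in Sol. In EDL and in all 5 Quad groups the fast genes were thus 3 of 3 and the slow genes 0 of 3. Both kinds were complete in Sol, and Dia lacked Tnni1.

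The fast start site regions were strong and wide. Their level over input ran from 2.53 to 4.36 with a median of 3.41, against medians of 1.99 to 2.55 for all regions of the 8 lists. Their percentile ran from 75.1 to 99.3 (median 95.1) and their width from 5.13 to 34.5 kb, where the lists' median width was 1.25 to 1.89 kb. The 5 slow start site regions reached 2.14 to 3.60 over input, at percentiles of 24.3 to 86.9 and widths of 4.23 to 8.34 kb. In another 10 combinations a slow gene had a named region away from its start, at 1.78 to 2.82 over input and percentiles of 24.8 to 59.5.

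Tnni2 encodes the fast inhibitory subunit. The level over input of its start site region in both replicates was 4.38 and 4.35 in EDL, 3.54 and 3.55 in Quad, 3.59 and 3.32 in Sed, 3.46 and 3.53 in Wt, 3.08 and 2.63 in Ex, 3.30 and 3.04 in mTg, 3.74 and 3.69 in Dia, and 3.51 and 3.22 in Sol. EDL was the highest and did not overlap any other group, and Ex replicate 2 was the lowest library. By percentile the order was EDL (98.3), Dia (97.6), Sol (95.8), Wt (95.6), Quad (95.6), mTg (95.2), Sed (93.9) and Ex (83.1). Replicates of Sol and Wt, of Wt and Quad, and of mTg and Sed overlapped, and those of Sed and Ex did not. Its edges reached as far as -5.58 kb in Quad and +6.597 kb in Wt, and in every group it took in the whole gene body, which is 2595 bases long. In Sol, a muscle rich in slow fibers, it was still 5.13 kb wide, from -1.41 to +3.71 kb.

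Tnnt3 encodes the fast tropomyosin-binding subunit. Its start site region had 3.83 and 3.85 over input in EDL, 3.43 and 3.48 in Quad, 3.24 and 3.16 in Sed, 3.71 and 3.56 in Wt, 2.72 and 2.34 in Ex, 3.23 and 3.10 in mTg, 3.57 and 3.64 in Dia, and 4.16 and 3.84 in Sol. Sol was high here and Ex low, and Ex did not overlap any other group. The order by percentile was mTg (99.3), Sol (97.4), Dia (97.0), Wt (96.7), Quad (95.5), EDL (92.8), Sed (87.0) and Ex (83.0). Only Sol and Dia, and Dia and Wt, overlapped among these neighbors.

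The Tnnt3 region differed in width between groups. It was 34.5 kb in EDL (chr7:142470035-142504570), 33.1 kb in Quad (chr7:142469753-142502802), 34.2 kb in Sed (chr7:142469768-142503993) and 28.1 kb in Wt (chr7:142474396-142502518). These ranked 12 of 35750, 5 of 40949, 8 of 34031 and 9 of 49010 regions by width. In Ex it was 10.5 kb, in mTg 8.72 kb, in Dia 12.96 kb and in Sol 7.71 kb wide, at ranks of 355, 411, 185 and 1072. In Ex and Sol a separate region named Lsp1 covered most of the upstream stretch (19.6 kb and 19.5 kb wide, with 3.41 and 3.44 over input in Ex and 3.15 and 3.26 in Sol). Regions named Lsp1 also lay in that stretch in Dia, mTg and Wt. Of the 29.1 kb from the outer edge of the Quad region to the Tnnt3 start, all H3K27ac regions together covered 83.0% in mTg, 85.9% in Dia, 86.3% in Sol, 93.4% in Ex and 96.9% to 100% in the other 4 groups, in 5 regions in mTg, 3 in Dia, Sol and Ex, 2 in Wt and 1 in EDL, Quad and Sed. Because the wide region reaches upstream to Lsp1, a leukocyte actin-binding protein gene, the annotation named it for Lsp1 in EDL, Quad and Sed. A count by gene name therefore gives Tnnt3 0 regions in those 3 lists.

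Tnnc2 encodes the fast calcium-binding subunit. Over input its region had 3.80 and 3.88 in EDL, 3.23 and 3.14 in Quad, 3.23 and 3.37 in Sed, 3.61 and 3.48 in Wt, 2.92 and 2.65 in Ex, 2.81 and 2.84 in mTg, 3.22 and 3.46 in Dia, and 2.94 and 2.74 in Sol. EDL was highest, and Ex, mTg and Sol overlapped at the low end. By percentile, Quad (95.7), Dia (94.9), Wt (94.2), EDL (93.6), mTg (93.1) and Sed (91.4) formed a run in which each overlapped the next. Sol (79.1) lay below Sed, and Ex (75.1) below Sol, with no overlap at either step. In Ex the 12.7 kb region (chr2:164776640-164789320) was named for the neighbor Snx21, so that Ex had 0 H3K27ac regions named Tnnc2. Tnnc2 was the fast member with the lowest percentile in Sol. The median percentile of the 5 fast fiber markers in Sol was 44.4, below all 3 fast troponins, against 89.9 in EDL and 96.7 in Quad.

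**Figure D1:**
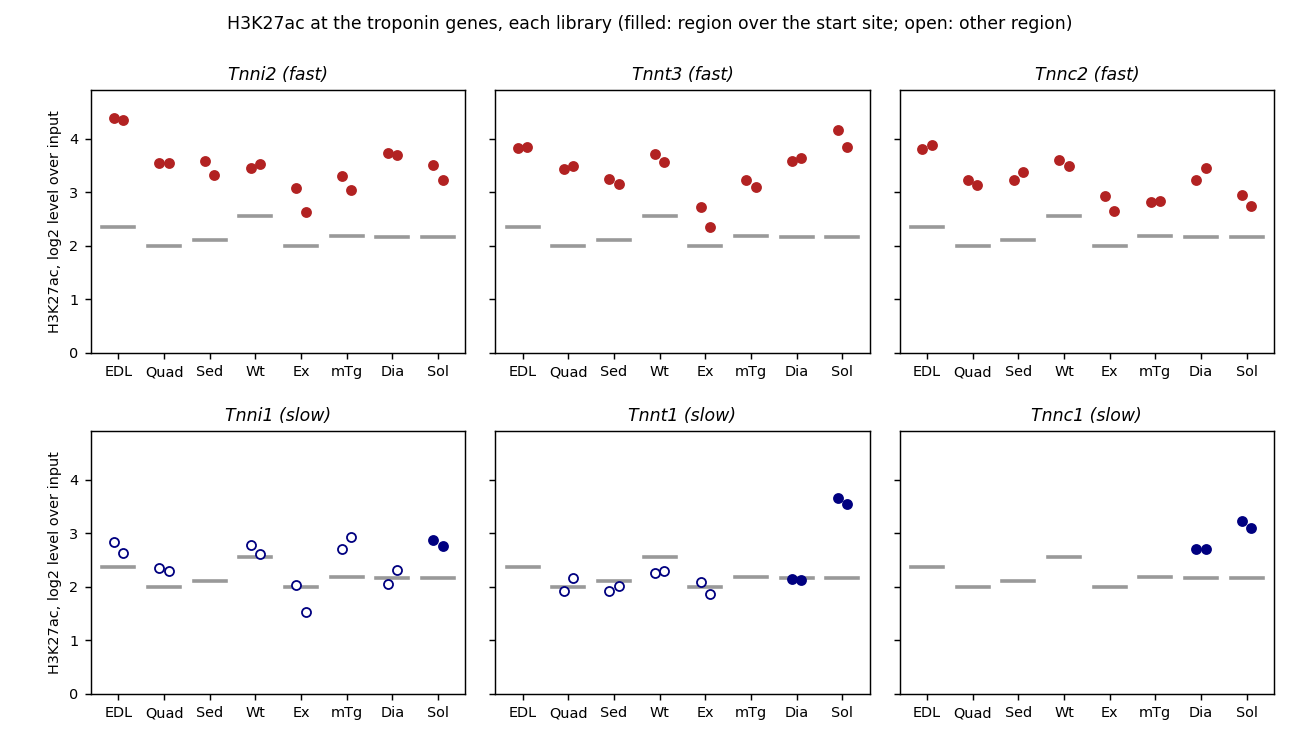
Level of H3K27ac over input (log2, vertical axis) at each troponin gene in every library, with 2 points for the 2 replicates of each group. Filled points are regions over the start site, open points are the strongest named region elsewhere, and gray bars are the median over all regions of that list. All fast points are filled and lie above the bars, whereas slow points away from the start site lie from 1.53 to 2.93.

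Tnni1 encodes the slow inhibitory subunit. In 7 of 8 groups, Sed being the exception, it had an acetylated region upstream of the gene, with its outer edge at -6.04 to -5.46 kb. In 6 of these groups the region ended at -4.30 to -2.70 kb. In Sol it ran on from -6.03 to +2.31 kb and covered the start (chr1:135793396-135801732, 8.34 kb). The level over input was 2.84 and 2.64 in EDL, 2.36 and 2.30 in Quad, 2.78 and 2.61 in Wt, 2.03 and 1.53 in Ex, 2.71 and 2.93 in mTg, 2.05 and 2.32 in Dia, and 2.86 and 2.76 in Sol. These levels overlapped between Sol, EDL, Wt and mTg, so it was the extent of the region, not its level over input, that set Sol apart. By percentile Sol (74.0) lay above EDL (59.5) without overlap, EDL overlapped mTg (56.0), which overlapped Quad (56.0), and Wt (50.7) overlapped Dia (49.2). Ex was the lowest at 29.3. In Sed the nearest region upstream, named Phlda3, ended 20315 bases before the start, and a list without a region does not show that the mark is absent.

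Tnnt1 encodes the slow tropomyosin-binding subunit. In Sol a region of 4.23 kb covered the start from -1.74 to +2.49 kb (chr7:4513485-4517718) with 3.65 and 3.55 over input, which was the highest of any slow gene in any group. Dia had 1 long region from -1.52 to +6.56 kb (8.07 kb) with 2.15 and 2.13, close to the Dia list's median of 2.16. Quad (1.92 and 2.16), Sed (1.92 and 2.02), Wt (2.26 and 2.29) and Ex (2.09 and 1.87) each had a region inside the gene that began 3.60 to 4.20 kb after the start. Sol had a second one at the same place, from +3.64 to +5.60 kb, with 2.22 and 1.90 over input. EDL and mTg had 0 H3K27ac regions named Tnnt1. By percentile Sol (83.4) stood above Wt (42.5), Quad (31.2), Ex (30.4), Sed (24.8) and Dia (24.3), where Quad and Ex overlapped, as did Sed and Dia. The low place of Dia held per kb of its long region. By the level of the whole region Dia (77.0) was second to Sol (89.9), above Ex (55.2), Sed (49.5), Quad (47.8) and Wt (36.8). Tnnt1 lies beside Tnni3, the cardiac inhibitory subunit gene.

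Tnnc1 encodes the slow and cardiac calcium-binding subunit. H3K27ac regions were named for it in Sol (chr14:31205140-31210573) and Dia (chr14:31204868-31210358) and in 0 of the other 6 groups. Sol had 3.23 and 3.10 over input at percentile 86.9, and Dia had 2.70 and 2.70 at percentile 67.6. The replicates of Sol and Dia did not overlap. The other 6 groups were not bare at this locus. They had a region named for the neighbor Nisch that stopped 388 to 756 bases before the Tnnc1 start, with 2.37 to 3.40 over input and percentiles of 81.2 to 91.95. Whether this region also covers the start of Nisch was not examined. In Sol and Dia the acetylated region began at about the same place, at -3.17 and -3.44 kb, and continued to +2.26 and +2.05 kb, inside the gene. The difference between groups was therefore on the gene side of the start site.

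H3K4me2 regions were named for a fast gene in 24 of 24 combinations and for a slow gene in 15 of 24, with 40 and 21 regions. For H3K27ac these counts were 20 of 24 and 15 of 24, with 28 and 16 regions. The share of all genes with a named region was not computed, so these counts by name have no background. The mark covered the start in 4 of 24 fast and 1 of 24 slow combinations, although the lists covered 57.7% to 64.5% of all curated start sites. At fast genes the regions mostly flanked the start. In Quad, for example, Tnnt3 had a region from -11.9 to -0.052 kb and another from +1.08 to +5.68 kb. The strongest H3K4me2 region of Tnni2 had percentiles from 51.9 in mTg to 98.6 in Quad. Those of Tnnt3 ran from 54.1 in mTg to 97.5 in Quad, and those of Tnnc2 from 53.5 in Sol to 90.9 in Quad. By percentile Quad was the highest group for all 3. Over input EDL was the highest for all 3. It had 3.38 at Tnni2, 3.43 at Tnnt3 and 3.54 at Tnnc2, against 3.10, 2.84 and 2.64 in Quad.

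**Figure D2:**
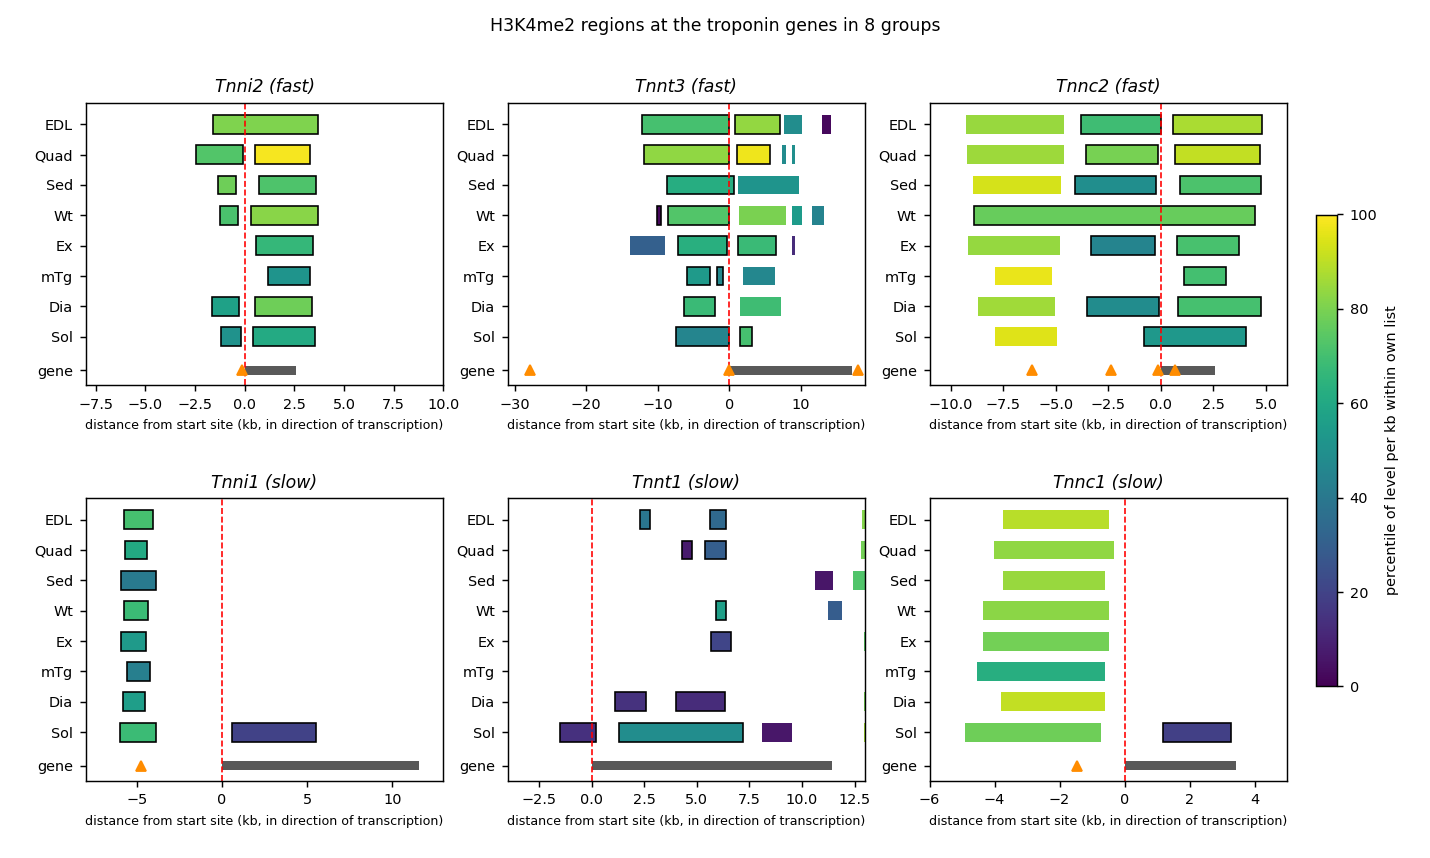
H3K4me2 regions at each troponin gene in the 8 groups, drawn as for H3K27ac, with distance from the start site in kb and color giving the percentile within the region's own list. Fast genes have bars on both sides of the start in most rows, every row of Tnni1 has a bar around 5 kb upstream, and bars inside Tnnc1 and downstream of the Tnni1 start are seen in Sol.

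At slow genes H3K4me2 showed a shared element and a Sol element. The upstream region of Tnni1 carried H3K4me2 in all 8 groups, Sed included, with percentiles of 40.9 in Sed to 70.5 in EDL. Over input it had 2.72 and 2.53 in EDL, 2.32 and 2.48 in Quad, 1.96 and 2.57 in Sed, 3.40 and 3.25 in Wt, 1.81 and 1.75 in Ex, 2.86 and 2.74 in mTg, 2.10 and 2.25 in Dia, and 2.40 and 2.48 in Sol. Sol was in the middle of these values. Sol also had a region inside Tnni1 from +0.583 to +5.50 kb, with 2.06 and 2.44 over input at percentile 19.8, and the other 7 groups had 0 there. Tnnc1 had a named H3K4me2 region in Sol alone, from +1.199 to +3.27 kb (1.96 and 1.80 over input, percentile 18.8). At Tnnt1, Sol had 5.86 kb of H3K4me2 inside the gene from +1.31 to +7.17 kb (2.18 and 2.23, percentile 48.8) and a region of 1.73 kb over the start (2.04 and 1.94, percentile 13.8). Dia had regions of 1.48 and 2.35 kb inside Tnnt1, EDL, Quad, Wt and Ex had shorter ones, and Sed and mTg had 0 named Tnnt1.

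Muscles were then compared where both carried the same region. Regions of a pair of lists were matched one to one when each overlapped the other by at least 50%, the log2 level per kb was centred on the median difference over all matched regions, and a region was called apart when it differed by over 2-fold and its centred replicates did not overlap. SE is the standard error of the difference over 2 replicates on each side. In 6 pairs of muscles and both marks, 48 member regions were matched and 3 were apart. All 3 were H3K4me2 regions of fast genes that were lower in Sol than in Quad, and they were all the fast regions matched in that comparison. Over all matched regions 1.89% were apart there.

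The 3 regions lay at or beside the start sites. In Tnni2 (chr7:142442231-142445371 in Sol) the centred levels were -0.20 and -0.15 in Sol and 1.13 and 0.99 in Quad, a difference of -1.23 (SE 0.07). In Tnnc2 (chr2:164775674-164780545) they were -0.33 and -0.48 in Sol and 0.79 and 0.63 in Quad, a difference of -1.12 (SE 0.11). Upstream of Tnnt3 (chr7:142491352-142498817) they were -0.72 and -0.53 in Sol and 0.52 and 0.45 in Quad, a difference of -1.11 (SE 0.10). The replicates were well separated in each case. At the Tnni1 upstream region the same comparison gave 0.44 (SE 0.03), higher in Sol but under 2-fold. Tnnt3 (without Sol replicate 1, -1.01) and Tnnc2 (without Quad replicate 1, -1.03) came nearest to the limit when a library was left out. Over input, Tnni2 had 2.20 and 2.30 in Sol and 3.11 and 3.09 in Quad. Tnnc2 had 2.61 and 2.51 in Sol and 2.66 and 2.62 in Quad. The region upstream of Tnnt3 had means of 2.25 in Sol and 2.52 in Quad. These gaps were all under 2-fold, where the list medians were 2.28 in Sol and 1.99 in Quad. By matched levels the Quad libraries were also higher at fast genes than the other untreated sets of the same muscle. Against Sed, Quad differed by 0.49 to 1.32 over 5 fast H3K4me2 regions, and against Wt by 0.51 to 0.62 over 3, so part of the height of Quad was not shared by Sed and Wt. Sol was not matched with those sets.

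The other H3K4me2 comparisons of Sol shared its libraries and are given side by side. Against EDL (0.626% of regions apart) the fast regions differed by -0.998 (SE 0.09) at Tnnc2, -0.60 (SE 0.10) at Tnnt3 and -0.56 (SE 0.03) at Tnni2, and Tnni1 by 0.13 (SE 0.08). Tnnc2 was just under 2-fold and passed it without Sol replicate 1 (-1.07) or EDL replicate 1 (-1.04). Against Dia (0.439% apart) they differed by -0.82 (SE 0.10) at Tnnt3, -0.68 (SE 0.12) at Tnnc2, and -0.65 (SE 0.04) and -0.34 (SE 0.14) at 2 regions of Tnni2, and Tnni1 by 0.29 (SE 0.08). By these levels per kb, fast troponin H3K4me2 was lower in Sol than in each of the other 3 muscles, and a call was made against Quad. Over input, Tnnc2 was not lower in Sol (2.61 and 2.51) than in Dia (2.38 and 2.54). The region upstream of the Tnnt3 start was 7.47 kb wide in Sol and 4.34 kb in Dia. With touching regions merged, as described below, Sol minus Dia was -0.10 (SE 0.10) there, with overlapping replicates. Downstream of that start it was -1.91 (SE 0.12), where 6.78% of all merged regions were apart.

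H3K27ac at matched regions was closer between muscles. For Sol against Quad (3.74% apart), Tnnc2 differed by -0.86 (SE 0.12), with centred levels of 0.45 and 0.24 in Sol and 1.27 and 1.15 in Quad, and Tnni2 by -0.04 (SE 0.14). The Tnnt1 region inside the gene differed by 0.43 (SE 0.19). Against EDL (2.88% apart), Tnnc2 was -0.81 (SE 0.10) and Tnni2 -0.44 (SE 0.15). None of these passed 2-fold. For Sol against Dia (1.64% apart) Tnnc1, the one slow start site region that matched, differed by 0.61 (SE 0.06), with centred levels of 0.73 and 0.62 in Sol and 0.07 and 0.05 in Dia. That was a 1.53-fold higher level in Sol, without overlap of replicates. Tnni2 (-0.38, SE 0.14) and Tnnt3 (-0.14, SE 0.16) were lower in Sol than in Dia by less.

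No matched member region was apart between Dia, EDL and Quad. Dia against Quad (4.27% of H3K27ac and 1.58% of H3K4me2 regions apart) gave 0.36 (SE 0.03) at Tnni2, 0.08 (SE 0.12) at Tnnc2 and -0.02 (SE 0.14) at the Tnni1 upstream region for H3K27ac. For H3K4me2 its 5 fast regions ran from -0.80 to -0.27 and Tnni1 was 0.15 (SE 0.08). The lowest were -0.80 (SE 0.06) at Tnnc2 and -0.75 (SE 0.10) at Tnnt3, without overlap of replicates and within the range of the Sol values above. The largest H3K4me2 differences were -0.33 (SE 0.07) at Tnnc2 for Dia against EDL (3.1% and 0.686% apart) and -0.65 (SE 0.06) at Tnni2 for EDL against Quad (0.643% and 0.457% apart), the latter also without overlap.

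**Figure D3:**
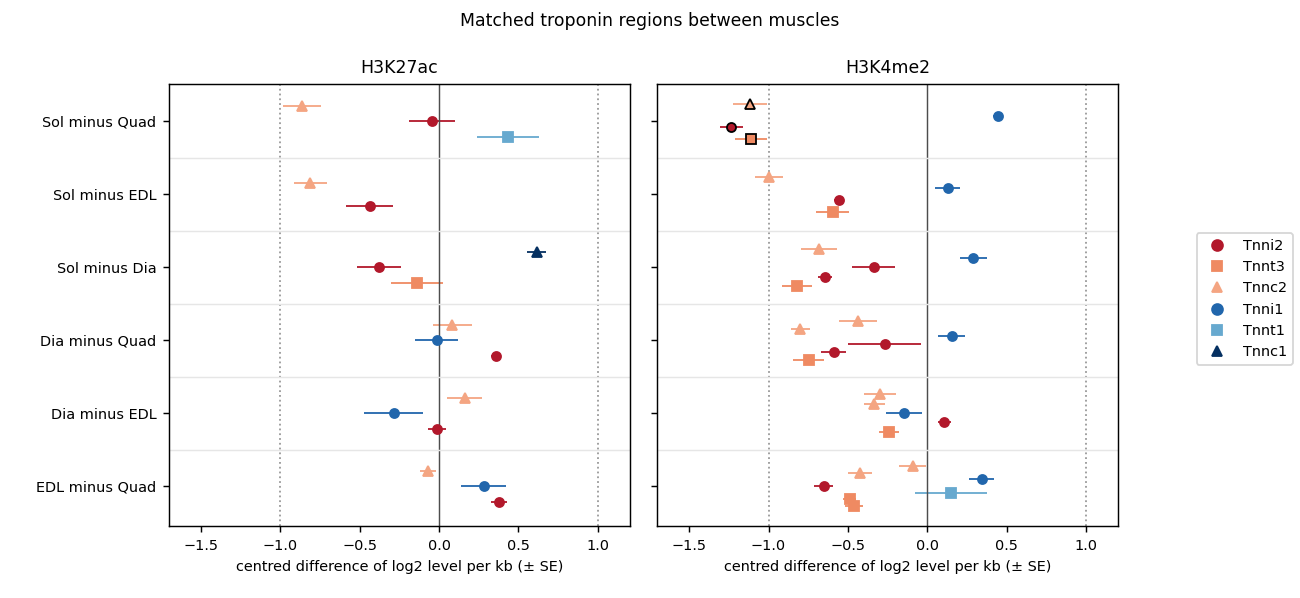
Difference of the centred log2 level per kb between 2 muscles at matched troponin regions (horizontal axis, bars ± SE over 2 replicates a side), for H3K27ac on the left and H3K4me2 on the right. Red and orange symbols are fast genes, blue symbols slow genes, dotted lines mark 2-fold, and outlined symbols are regions called apart. The outlined symbols are Tnni2, Tnnt3 and Tnnc2 in H3K4me2 of Sol minus Quad, from -1.23 to -1.11.

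One-to-one matching leaves out the slow genes wherever the regions differ in extent, so all regions of a pair of lists that touched were also merged and their levels summed. Bases outside a list's own regions add nothing to such a sum, so these differences include the width, and many more regions were apart. For H3K27ac, Tnni1 (8.34 kb covered in Sol, 1.87 kb in Quad) differed by 2.80 (SE 0.08) for Sol minus Quad, where 21.4% of merged regions were apart. It differed by 2.03 (SE 0.15) for Sol minus EDL (2.91 kb in EDL, 17.9% apart) and by 2.68 (SE 0.15) for Sol minus Dia (2.11 kb in Dia, 13.5% apart). The merged region of Nisch and Tnnc1 (5.43 kb in Sol, 2.56 kb in EDL) differed by 1.05 (SE 0.07) for Sol minus EDL. It was not apart for Sol minus Quad (0.90, SE 0.11), Sol minus Dia (0.57, SE 0.06), Dia minus EDL (0.54, SE 0.01) or Dia minus Quad (0.37, SE 0.07). Tnnt1 was 1.88 (SE 0.11) higher in Dia (8.07 kb) than in Quad (2.21 kb, 22.5% apart) and 1.06 (SE 0.07) higher in Sol (4.23 and 1.97 kb) than in Dia. Its region inside the gene was not apart for Sol minus Quad (0.22, SE 0.19). Over input, as given above, the level of Tnni1 in Sol was within the range of the other groups. For H3K4me2 the inner Tnnt1 region was higher in Sol by 2.98 (SE 0.06) than in Quad (12.6% apart), which covered 1.01 and 0.501 kb of its 5.86 kb, and by 2.98 (SE 0.17) than in EDL (7.75% apart), which covered 0.752 and 0.501 kb. The same measure also separated untreated sets of Quad at Tnnt1. It was 1.68 (SE 0.05) higher in Sed (2.99 kb) than in Wt (0.903 kb, 14.6% apart) and 1.11 (SE 0.11) higher in Quad (2.21 kb) than in Wt (19.2% apart), so a merged difference of that size at Tnnt1 also arose without any treatment or change of muscle.

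Exercise and the PGC1a transgene were examined in Quad. For Ex against Sed, the matched H3K27ac regions differed by -0.79 (SE 0.04) at Tnnc2, with centred levels of 0.18 and 0.10 in Ex and 0.91 and 0.94 in Sed, and by -0.63 (SE 0.23) at Tnni2, with 0.58 and 0.31 in Ex and 1.26 and 0.88 in Sed. Replicates did not overlap at either gene, and neither difference passed 2-fold. Tnnt3, 10.5 kb wide in Ex and 34.2 kb in Sed, was not matched. Merged H3K27ac differed by -0.15 (SE 0.08) at Tnnt3, -0.58 (SE 0.08) at Tnnc2 and -0.85 (SE 0.23) at Tnni2. None of these was apart, where 24.6% of all merged regions were. Tnnt1 differed by 0.11 (SE 0.02), with -0.94 and -0.97 in Ex and -1.06 and -1.07 in Sed. Of all matched regions, 3.17% were apart. The fast fiber markers moved the same way, with a median percentile of 57.8 in Ex and 90.7 in Sed. Those of slow fibers were also lower in Ex, at 45.1 against 53.9 in Sed. Endothelial markers were higher in Ex, at 81.3 against 69.5 in Sed, as were those of fibroblasts, at 75.1 against 56.2. Macrophage markers were higher as well, at 31.4 (3 of 3 acetylated) in Ex against 8.65 (2 of 3) in Sed. Satellite cell markers went the other way, at 9.09 (1 of 2) in Ex against 15.99 (2 of 2) in Sed. The part of these markers in the troponin result was not tested. From qPCR of immune, vascular, satellite cell and myogenic transcripts, the authors reported no change in the cell makeup of Ex muscle. H3K4me2 of the fast genes differed by -0.11 to 0.49 in Ex against Sed, and 0.0925% of all regions were apart.

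For mTg against Wt (4.64% of H3K27ac regions apart) the differences in H3K27ac were 0.29 (SE 0.09) at Tnni2, 0.25 (SE 0.08) at Tnnc2 and 0.42 (SE 0.18) at the Tnni1 upstream region. Centred levels at Tnni1 were -0.66 and -0.33 in mTg and -0.83 and -0.98 in Wt. These were small beside the 2-fold limit, and no start site of a slow gene was covered in mTg. At the fast genes the sign depended on the measure. Their regions were narrower in mTg, at 5.99 against 9.5 kb for Tnni2, 6.27 against 11.4 kb for Tnnc2 and 8.72 against 28.1 kb for Tnnt3. Tnnt3 was therefore not matched, and its percentile was 99.3 in mTg and 96.7 in Wt. Over input, Tnni2 had 3.30 and 3.04 in mTg and 3.46 and 3.53 in Wt. Tnnc2 had 2.81 and 2.84 in mTg and 3.61 and 3.48 in Wt. Tnnt3 had 3.23 and 3.10 in mTg and 3.71 and 3.56 in Wt. The list medians were 2.19 and 2.55. Merged H3K27ac differed by -0.26 (SE 0.12) at Tnni2, -0.01 (SE 0.04) at Tnnc2 and -0.41 (SE 0.05) at Tnnt3. None of these was apart, where 26.1% of all merged H3K27ac regions were. H3K4me2 (0.724% apart) differed by -0.51 (SE 0.31) at Tnni2 and by -0.11 (SE 0.10) at Tnni1, and mTg replicate 1, the shallowest library, was the lowest of the 4 at both. In merged regions 2 of 4 were apart, where 9.16% of all were. Tnni2 differed by -1.10 (SE 0.31), with 2.15 kb covered in mTg and 3.37 kb in Wt, and the region upstream of the Tnnt3 start by -1.07 (SE 0.27), with 3.13 and 0.783 kb covered in mTg and 8.54 kb in Wt. At 289 matched H3K4me2 regions that met any of the 1828 regions hyperacetylated in mTg, the median difference of H3K4me2 was 0.00. At 82 that met any of the 844 hypoacetylated regions it was 0.16, with 64.6% higher in mTg.

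Untreated sets of Quad give the scale for these values. Between Quad and Sed 1.07% of H3K27ac and 0.734% of H3K4me2 regions were apart, between Quad and Wt 1.35% and 2.7%, and between Sed and Wt 0.495% and 1.78%. One member region was apart among them, the H3K4me2 region downstream of the Tnnt3 start, with centred levels of 1.04 and 0.90 in Quad and -0.49 and -0.21 in Sed (difference 1.32, SE 0.15). It paired a region of 4.602 kb with one of 8.50 kb at 52.2% overlap, was not called at 80% overlap or for whole regions, and differed by 0.51 (SE 0.15), not apart, when merged. H3K27ac at Tnni2 differed by 0.06 (SE 0.15) between Quad and Sed and by -0.01 (SE 0.15) between Sed and Wt, and at Tnnt3 by -0.47 (SE 0.08) between Sed and Wt.

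The authors' lists of differentially acetylated regions held 0 regions named for a troponin gene. They comprised 382 hyperacetylated and 2280 hypoacetylated regions in Ex against Sed, and 1828 and 844 in mTg against Wt. Among merged H3K27ac regions, 6.34% of those of Ex and Sed and 4.78% of those of mTg and Wt met a listed region, and of 5 merged troponin regions in each pair 0 did. The 4 libraries of such a list were normalized together and could be tested. In limma, 99.7% of the regions in the exercise lists and 100% in the PGC1a lists passed an adjusted p-value of 0.05, but the authors had chosen them for differing, and with 0 members no troponin region entered the test. The listed region nearest to a member lay downstream of Tnnc2 and was named Ube2c (chr2:164764812-164767457). It had log2 levels of 6.91 and 6.56 in Sed and 6.04 and 5.98 in Ex, a difference of -0.72 (SE 0.21) with a limma adjusted p-value of 0.00132.

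Accessible chromatin of Quad came from an ATAC-seq list of 44911 peaks. An accessible site was centred 141 bases before the Tnni2 start (chr7:142441578-142441772), 93 bases before that of Tnnt3 (chr7:142498646-142498840) and 126 bases before that of Tnnc2 (chr2:164779763-164779957). Their signals of 21.3, 23.2 and 20.6 tags, scaled to a common library size, ranked at percentiles of 93.3, 94.6 and 92.8. Tnnc2 had 3 more within its histone regions, centred at -6115, -2392 and +659. At slow genes the sites were weaker and away from the start. Tnni1 had 1 centred at -4773 (9.11 tags, percentile 63.8), the upstream site whose sequence is given above. Tnnc1 had 1 at -1464 (8.23 tags, percentile 58.6), within the Quad region named Nisch, so it may belong to either gene. The Tnnt1 regions held 0.

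MED1, a subunit of the mediator complex that links enhancers to polymerase, and the calcium-regulated factor NFAT were profiled in 1 library per muscle (pooled from 5 animals for Quad and 10 for Sol), so their values carry no replicate error. Of 2145 MED1 peaks in Dia, 1 lay at each fast start, at +69 for Tnni2 (peak score 9.4), +78 for Tnnt3 (9.92) and +157 for Tnnc2 (8.35), and 2 lay upstream of Tnnt3 in the stretch named Lsp1. Of 3593 peaks in Quad, 1 was at +36 of Tnnc2 (percentile 96.7 by score) and 1, named for Nisch, at -1677 of Tnnc1 (5.75, percentile 18.5). Sol had 1 of 4070 in a member region, at -5916 of Tnnc2, and EDL had 0 of 834. NFAT had 485 peaks in Quad, with 0 in troponin regions, and 39661 in Sol, with 1, at +1464 of Tnnt3 (score 20.5, percentile 97.3). The slow start sites held neither factor in Sol, and with lists this unequal in size a count of 0 says little.

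Other thin filament genes, a list of 12 chosen for their role, gave the setting. In each H3K27ac list 9 to 12 of them had a named region, and for 7 to 9 the strongest region was at or above percentile 75 of its list. Some had many regions, such as 12 for Tpm1 in Wt, from which the strongest was taken. The share of all genes that reach this was not computed, so the count does not set these genes apart. Skeletal actin, Acta1, had percentiles from 79.6 (Ex) to 97.9 (EDL). Tpm3, a tropomyosin gene used in slow fibers, had regions in all 8 groups, at 58.0 (mTg) to 86.6 (Wt). Each slow troponin gene lacked a named region in at least 1 group. Whether the Tpm3 regions came from fibers or from other cells of the muscle was not tested. The cardiac troponin gene Tnnt2 had a region in Ex alone, at percentile 0.7, and Tnni3 had one in 7 groups, at 37.7 to 57.8. At matched regions of the list, H3K4me2 was apart in 2 of 23 for Sol against Quad, both lower in Sol (median -0.32), and H3K27ac in 4 of 26 (median -0.12, 1 higher). For Ex against Sed, H3K27ac was apart in 2 of 23, both lower in Ex (median -0.48), while the 2 fast troponin regions had a median of -0.71.

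Genes with a pattern like that of the slow troponins were sought among 10996 genes whose strongest H3K27ac region moved by at least 20 percentile points over the 8 groups. The reference was the mean percentile of Tnni1, Tnnt1 and Tnnc1, with 0 where a list had no named region, which ran from 8.26 in Sed to 81.5 in Sol. Pearson's r over the 8 groups was highest for Myl3 (0.97), a slow and cardiac myosin light chain, Gata5 (0.96), Myh7 (0.95), the slow myosin heavy chain, Mir653 (0.95) and Frmd5 (0.95). All 5 were highest in Sol and second in Dia, as was the reference they were chosen to resemble. Myl3 reached percentile 92.6 in Sol and 33.6 in Dia, and Myh7 77.1 and 31.9. These are descriptions over 8 points that share libraries and lists. The slow reference carries 0s from naming, as Tnnc1 counts as 0 in every group but Sol and Dia. In those groups a region named Nisch, at percentiles of 81.2 to 91.95, stopped 388 to 756 bases before the Tnnc1 start. For the fast genes the nearest were Csnk2b (0.99), Tagap (0.96), 6030466F02Rik (0.94), Khdrbs3 (0.94) and Plin5 (0.93). The fast reference likewise carries the 0s that naming gave Tnnt3 in EDL, Quad and Sed and Tnnc2 in Ex.

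**Figure D4:**
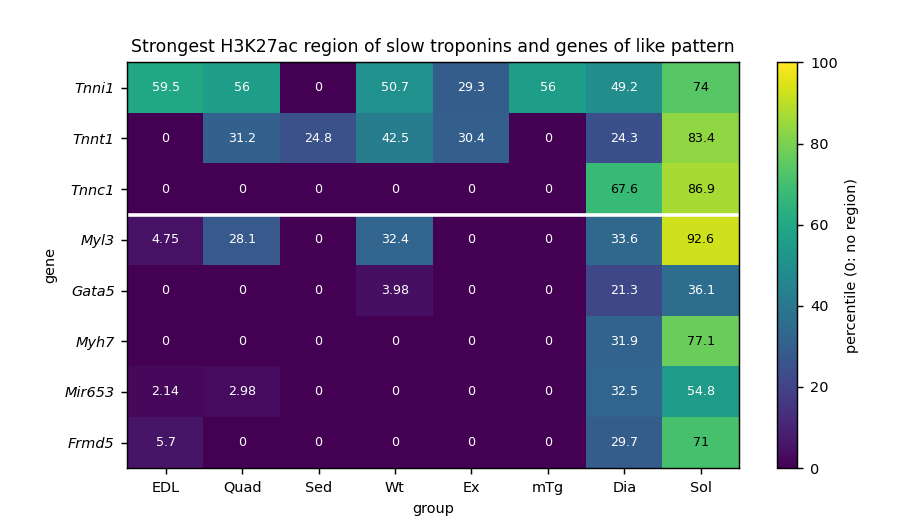
Percentile of the strongest H3K27ac region of the 3 slow troponin genes (above the white line) and of the 5 genes whose pattern was most like their mean (below it), in the 8 groups, where 0 means that the list had no region of that name. Values are highest in the Sol column for all 8 genes, from 36.1 for Gata5 to 92.6 for Myl3.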

How the data were processed

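Per the study's methods and the submitters' processing notes, ChIP-seq reads were aligned to mm10 with Bowtie, keeping those with a unique position, and analyzed with HOMER. The notes also name mm9. The authors called each histone list over both replicates against input with DESeq2 in HOMER, at 2-fold enrichment and an FDR of 0.05. The deposited tag columns are log2 levels, taken here to be regularized logarithms, normalized within each list. The authors' adjusted p-value and log2 fold change were used only to filter regions in alternatives. The deposited ATAC values are a signal of scaled tags, and the deposited MED1 and NFAT values are a peak score. Whether ATAC reads were shifted is not given in the sources used here. Because of the separate normalization, levels were compared between lists without a test, and replicate spread may be partly technical. Within the differential lists limma 3.58.1 (R 4.3.3) was used, two-sided and Benjamini-Hochberg adjusted over all regions of a list. On simulated data it recovered 100% of planted changes of 2 log2 units, and smaller changes were not planted. Overlaps required 1 base. Members and gene lists were chosen with earlier results of these data known. Named genes were all 6 members, at most 4 thin filament genes as examples, and the 5 genes most alike for fast and for slow members. Alternatives were a stricter p-value or fold, regions within 10 kb, whole-region levels, a stricter overlap, no centring, merged regions, a replicate block and leaving out each replicate. 5 files on another genome build were not used.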

Additional observations from a re-analysis of the deposited data

How the results depend on the processing

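No called result changed its direction under an alternative. Counting regions within 10 kb of the gene body whatever their name gave 114 H3K27ac and 131 H3K4me2 regions in place of 44 and 61, and counting those over the start site, an alternative chosen after seeing the data, gave 29 and 5. An adjusted p-value under 0.001 left 33 and 41, and 4-fold enrichment 42 and 58. The median percentile over the strongest regions of 74 combinations of gene and list was 70.5 per kb of width, 87.5 for the level of the whole region and, over only the 29 H3K27ac and 5 H3K4me2 combinations with a covered start, 93.0 for regions over the start site. With whole-region levels, 61 of the 74 percentiles moved by at least the standard deviation between their replicates. The 3 regions apart between muscles became 1 at 80% overlap, 6 for whole regions, 5 without centring and 24 when merged, and 3 to 4 with a replicate left out. The 1 region apart within Quad, over conditions and untreated sets, became 0 at 80% overlap, 2 for whole regions, 2 without centring and 6 when merged, and 1 to 3 with a replicate left out. The 3 arose without Sed replicate 2. The Quad against Sed region itself was lost at 80% overlap and for whole regions, and mTg against Wt H3K4me2 gave 1 of the 2 for whole regions and 2 of the 6 when merged, from 0. Taking regions within 10 kb gave 1 region past the test in the exercise lists in place of 0, whose limma adjusted p-value ran from 8.11e-05 to 0.0462 with a library left out.

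Since no region of the differential lists was named for a troponin gene, 0 were past the test in both contrasts with and without the replicate block, and this count could not change. Numbers did not pair the samples: deviations of same-numbered libraries correlated at 0.144 and 0.106 in the exercise lists and at -0.04 and -0.24 in the PGC1a lists. The crossed pairing, added after seeing the data, called 2672 PGC1a regions, the same number as without it. Depth limits the H3K4me2 lists of mTg most, at 6.41M tags in 1 library, and a region missing from a list is not shown to lack the mark.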
